A study of Mus musculus with 8 samples.

Results

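The 8 genes described here, Gfra1, Ret, Etv5, Bcl6b, Lhx1, Id4, Nanos2 and Eomes, encode the GDNF receptor, genes that answer to GDNF, and regulators of the spermatogonial stem cell. They were taken by gene symbol, 8 of the 23343 symbols in the deposited count tables. Each had a single transcript entry, and all 8 passed the filter on low counts that left 14907 genes for testing. RNA was sequenced from cKit+ and Thy1+ spermatogonia of C57BL/6 mouse testes at postnatal day 7, in 4 groups of 2 libraries: cKit dKO, cKit control, Thy1 dKO and Thy1 control. The genotype labels are PRC1dKO and PRC1ctrl, where PRC1 is Polycomb repressive complex 1, which places a ubiquitin mark on histone H2A. The labels do not name the deleted genes, a Cre driver or the control alleles, and they do not say whether replicates were separate animals, so p-values measure only the spread between these libraries.

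In the mouse testis, somatic cells secrete GDNF, which binds the membrane-anchored co-receptor GFRA1 on undifferentiated spermatogonia and so activates the receptor tyrosine kinase RET. RET signals through SRC family kinases, PI3K and AKT, and the RAS-ERK cascade. In cultured mouse stem cells GDNF raises Etv5, Bcl6b, Lhx1 and Id4, and loss of several of these genes depletes the stem cell pool. Thy1 is a surface marker used to enrich undifferentiated spermatogonia, and Kit is found on those already committed to differentiation.

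The libraries held 6763908 to 10976869 counts, and log2 CPM values (counts scaled to the TMM-adjusted library size) of the 2 libraries of a group correlated at 0.957 to 0.98. Kit was higher in cKit control than in Thy1 control libraries by 1.68 ± 0.105 and Thy1 was lower by a log2 change of -4.87 ± 0.57 (SE, n = 2 each; edgeR adjusted p 3.7e-08 and 1.72e-05). Ring1 and Rnf2, which encode its catalytic subunits, did not pass the test in cKit dKO (log2 change 0.73 ± 0.502 and 0.02 ± 0.125; edgeR adjusted p 0.302 and 0.907) or in Thy1 dKO libraries (0.39 ± 0.54 and 0.18 ± 0.125; edgeR adjusted p 0.807 and 0.56). Which exons were removed is not given in the sources used here, so these whole-gene counts do not check the genotype. Somatic transcripts were present in every group: summed CPM of 8 Leydig cell markers was 15420 to 18030 in cKit dKO, 11050 to 13260 in cKit control, 3753 to 4194 in Thy1 dKO and 2551 to 3173 in Thy1 control libraries. Summed CPM of 22 core germ cell markers was 781.4 to 1095 in cKit dKO, 2493 to 3156 in cKit control, 2905 to 3313 in Thy1 dKO and 3488 to 3892 in Thy1 control libraries.

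PRC1 is known to be recruited to CpG-rich promoters, but whether it bound those of the members was not tested. The bases upstream are shown for Etv5, the member called between cKit dKO and cKit control libraries. They are also shown for Lhx1, a developmental homeobox gene with a like number of CG, and for Nanos2, which had the fewest. In these 3 the RefSeq start is the deposited start. The RefSeq promoter table (GRCm38.p6, the build of the mm10 coordinates in the files) held 6 of the 8 members, all but Ret and Bcl6b. Each sequence is the 250 bases before the start, 5′ to 3′ on the gene's strand, with every CG in capitals. Etv5 is at chr16:22439571-22439820 on the minus strand, Lhx1 at chr11:84525535-84525784 on the minus strand, and Nanos2 at chr7:18987274-18987523 on the plus strand.
Etv5: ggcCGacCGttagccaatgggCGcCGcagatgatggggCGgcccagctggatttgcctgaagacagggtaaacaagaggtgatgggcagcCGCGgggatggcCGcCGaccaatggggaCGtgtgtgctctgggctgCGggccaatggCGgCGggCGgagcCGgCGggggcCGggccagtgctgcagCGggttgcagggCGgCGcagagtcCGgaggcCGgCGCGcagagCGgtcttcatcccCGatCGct
Lhx1: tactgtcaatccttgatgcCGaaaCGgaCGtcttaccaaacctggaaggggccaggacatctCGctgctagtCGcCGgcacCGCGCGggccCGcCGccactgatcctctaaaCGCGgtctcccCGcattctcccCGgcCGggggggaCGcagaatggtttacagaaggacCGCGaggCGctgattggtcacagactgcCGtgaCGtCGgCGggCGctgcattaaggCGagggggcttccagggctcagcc
Nanos2: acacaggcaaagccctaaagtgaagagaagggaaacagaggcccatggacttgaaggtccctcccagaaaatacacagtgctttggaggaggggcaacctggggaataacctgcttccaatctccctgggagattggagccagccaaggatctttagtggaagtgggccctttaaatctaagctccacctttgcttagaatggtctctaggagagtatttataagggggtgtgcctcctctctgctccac

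The Etv5 window held 27 CG dinucleotides (observed over expected 0.897, GC 71.2%), the Lhx1 window 26 (0.991) and the Nanos2 window 0. Id4 had 35 (1.05), Gfra1 10 (0.583), Eomes 8 (0.621), and the second RefSeq start of Etv5 had 18 (0.78), but the RefSeq starts of Id4, Gfra1 and that second Etv5 entry lay 311, 932 and 1202 bases from the deposited ones. Over 32841 mouse promoter windows of the same length the median was 6 CG and the 90th percentile 25, so Id4, Etv5 and Lhx1 were above the 90th percentile of the number of CG. By observed over expected, whose 90th percentile is 0.924, Id4 and Lhx1 were above it and Etv5 was below it. Of all windows, 92.14% hold at least 1 CG and that of Nanos2 does not. GGAA, the core site of ETS factors such as ETV5, was searched on both strands together with the longer CCGGAAGT, which contains it, and the E-box CANNTG, the site of helix-loop-helix factors that ID proteins inhibit. GGAA occurred 4 times in the Nanos2 and second Etv5 windows, 3 times in Gfra1, and 2 times each in Lhx1 and Id4. It occurred 0 times in the first Etv5 window and in Eomes, and 93.45% of all windows hold it. None of the 7 member windows held CCGGAAGT, found in 2.88% of all windows, and CANNTG occurred in Gfra1 (3) and Etv5 (2), against 66.23% of all windows with at least 1 match.

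All 8 genes are annotated as protein coding. In the deposited mm10 coordinates Gfra1 lies at chr19:58236692-58454466, Ret at chr6:118151748-118197744, Etv5 at chr16:22381313-22439570, Bcl6b at chr11:70224127-70229798 and Lhx1 at chr11:84519379-84525534, all on the minus strand and with no overlapping gene in GENCODE M21. Id4 at chr13:48261427-48264036, Nanos2 at chr7:18987524-18988962 and Eomes at chr9:118478189-118486132 lie on the plus strand, and each is overlapped by at least 1 noncoding gene on the opposite strand. The strand setting of the counting is not stated, so reads of those partners cannot be told apart from reads of these 3 genes.

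Both receptor genes were high in Thy1+ and low in cKit+ libraries. Gfra1, the GDNF-binding co-receptor, had 3.20 and 2.04 CPM in cKit dKO libraries, 1.99 and 1.40 in cKit control, 53.6 and 47.2 in Thy1 dKO and 30.4 and 39.7 in Thy1 control. Ret, the signalling receptor kinase, had 4.96 and 6.59 CPM in cKit dKO libraries, 5.11 and 3.445 in cKit control, 79.85 and 81.8 in Thy1 dKO and 72.7 and 75.6 in Thy1 control. For both genes every cKit library lay far below every Thy1 library. In cKit control against Thy1 control libraries Gfra1 fell 20.0-fold (log2 change -4.32 ± 0.286, SE; edgeR adjusted p 6.53e-08) and Ret 16.9-fold (-4.08 ± 0.207; edgeR adjusted p 7.86e-09), the 66th and the 80th lowest log2 changes of 14907 genes. In cKit dKO against Thy1 dKO libraries the log2 changes were -4.26 ± 0.285 for Gfra1 and -3.80 ± 0.21 for Ret (edgeR adjusted p 1.4e-07 and 3.08e-08). These counts come from bulk RNA, in which fewer cells of a type and less RNA per cell cannot be told apart.

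Etv5, an ETS transcription factor of the PEA3 group and the best known GDNF target in mouse stem cells, was the one member that kept a high level in the cKit libraries. It had 97.3 and 115.9 CPM in cKit dKO libraries, 40.2 and 45.2 in cKit control, 101.0 and 100.7 in Thy1 dKO and 70.6 and 78.5 in Thy1 control. The cKit control libraries were the lowest, and the cKit dKO libraries stood on either side of the Thy1 dKO libraries. Means were 106.6 ± 13.1 CPM in cKit dKO, 42.7 ± 3.53 in cKit control, 100.8 ± 0.212 in Thy1 dKO and 74.6 ± 5.6 in Thy1 control (SD, n = 2 each). Etv5 was 1.75-fold lower in cKit control than in Thy1 control libraries (log2 change -0.81 ± 0.138; edgeR adjusted p 0.00057), while the difference between cKit dKO and Thy1 dKO did not pass the test (0.08 ± 0.134; edgeR adjusted p 0.681). When libraries were scaled on germ cell genes, the first of these was -0.34 with an adjusted p of 0.366 and the second 1.81 with an adjusted p of 7.18e-10 (edgeR). Summed Sertoli and Leydig cell markers were higher in the cKit than in the Thy1 groups, and peritubular, stromal and macrophage markers were lower. The part of these cells in the Etv5 counts was not tested.

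**Figure D1:**
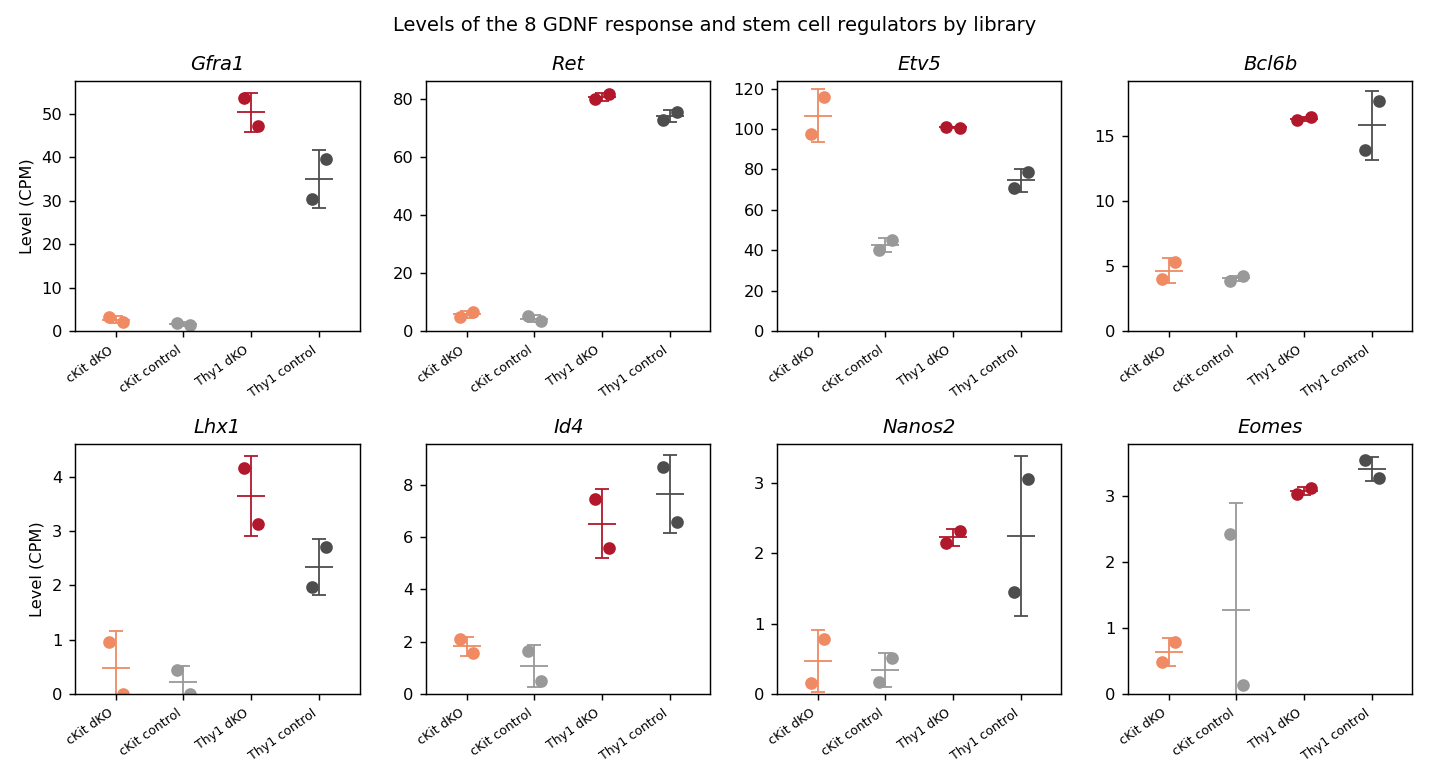
Level of each of the 8 genes in CPM, with a panel and a linear axis from 0 for each gene; points are single libraries, and bars are the mean and SD of the 2 libraries of a group, from cKit dKO at the left to Thy1 control at the right. Gfra1 and Ret were at 6.59 CPM or less in all 4 cKit libraries, while Etv5 was at 40.2 CPM or more in all 8 libraries.

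Bcl6b and Lhx1, 2 further GDNF-responsive transcription factors, differed in depth. Bcl6b, a zinc finger repressor, had 4.002 and 5.333 CPM in cKit dKO libraries, 3.90 and 4.21 in cKit control, 16.2 and 16.5 in Thy1 dKO and 13.9 and 17.7 in Thy1 control. Every cKit library was below every Thy1 library, and the log2 change was -1.97 ± 0.3 between the control groups and -1.80 ± 0.306 between the dKO groups (edgeR adjusted p 0.000208 and 0.000359). With germ cell scaling the second was -0.09 with an adjusted p of 0.853 (edgeR). Lhx1, a LIM homeobox factor, had 6 and 0 counts in cKit dKO libraries, 5 and 0 in cKit control, 37 and 23 in Thy1 dKO and 15 and 23 in Thy1 control. Its pooled CPM ratio of cKit control over Thy1 control libraries was 0.109 (95% exact interval 0.0336 to 0.279, for counting error only), and that of cKit dKO over Thy1 dKO 0.129 (0.0454 to 0.297). Both contrasts passed the edgeR test narrowly (adjusted p 0.0415 and 0.0333). The first was lost without any single Thy1 library or cKit control replicate 2 (edgeR adjusted p 0.0772 to 0.207) and with the highest-count entry per symbol (0.0561), and the second without any single Thy1 library or cKit dKO replicate 2 (0.0589 to 0.168) and with germ cell scaling (0.286).

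The 3 stem cell regulators Id4, Nanos2 and Eomes, like Lhx1, had at most 66 counts in any library. Id4, an inhibitor of helix-loop-helix factors whose reporter marks mouse stem cells, had 13 and 10 counts in cKit dKO libraries, 19 and 4 in cKit control, 66 and 41 in Thy1 dKO and 66 and 56 in Thy1 control. It was lower in cKit control than in Thy1 control libraries by a log2 change of -2.73 ± 0.528 and in cKit dKO than in Thy1 dKO libraries by -1.83 ± 0.526 (edgeR adjusted p 0.00158 and 0.0139). The second of these calls was lost without Thy1 dKO replicate 1 (adjusted p 0.109 in edgeR) or cKit dKO replicate 2 (0.0644), and under germ cell scaling it was -0.07 (0.921).

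Nanos2, an RNA-binding protein that holds mouse spermatogonia in the stem cell state, had 1 and 5 counts in cKit dKO libraries, 2 and 4 in cKit control, 19 and 17 in Thy1 dKO and 11 and 26 in Thy1 control. Its pooled CPM ratio was 0.135 (95% exact interval 0.0465 to 0.322) for cKit control over Thy1 control and 0.214 (0.0738 to 0.513) for cKit dKO over Thy1 dKO. Only the first passed the edgeR test (adjusted p 0.0409, against 0.0727), and it was lost without any single Thy1 or cKit control library (0.0758 to 0.333), with DESeq2 (0.0532) and with germ cell scaling (0.0875). The second passed with limma on log2(RPKM + 0.1) and log2(RPKM + 1) (-1.58 and -0.40, limma adjusted p 0.0176 and 0.0193). Eomes, a T-box factor found in part of the GFRA1-positive cells of the mouse testis, had 3 and 5 counts in cKit dKO libraries, 28 and 1 in cKit control, 27 and 23 in Thy1 dKO and 27 and 28 in Thy1 control. The cKit control libraries differed most, and neither contrast between the sorts passed the test (log2 change -1.32 ± 0.771 in controls and -2.26 ± 0.901 in dKO; edgeR adjusted p 0.268 and 0.0651). Without cKit control replicate 1, the library with 28 counts, the change between the control groups was -4.57 with an adjusted p of 0.0158 (edgeR). The change between the dKO groups passed with library totals, with no filter on low counts, with only the 4 libraries, and without either cKit control replicate (edgeR adjusted p 0.0489, 0.0144, 0.0352, 0.024 and 0.0224).

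In all, 7 of the 8 genes were lower in cKit control than in Thy1 control libraries by the edgeR test, beside 19.7% of all tested genes changed, 10.3% lower and 9.46% higher. The median log2 change was -2.74 over the 8 genes and 0.01 over all tested genes. In cKit dKO against Thy1 dKO libraries 5 of the 8 were lower, beside 34.8% of all genes changed, 20.0% lower and 14.8% higher, with medians of -2.23 and -0.08. In CPM, both cKit control libraries lay below both Thy1 control libraries for all 8 genes, beside 29.8% of all genes, and both cKit dKO libraries below both Thy1 dKO libraries for 7, all but Etv5, beside 38.2%. Markers of other cells moved between the sorts as well. All 11 peritubular and stromal markers were lower in cKit control than in Thy1 control libraries by the edgeR test, with summed CPM of 2149 to 2228 against 7475 to 10090. The 9 macrophage markers summed to 170.4 to 393.8 CPM in cKit control against 873 to 1008 in Thy1 control, with 6 of 9 lower. Other lists ran the opposite way. Mast cells carry Kit, and all 6 tested mast cell markers were higher in cKit control than in Thy1 control libraries, with summed CPM of 118.6 to 195.1 against 18.3 to 37.7. Of 8 Leydig cell markers 7 were higher and none lower. T and NK cells also carry Thy1, and 11 of their markers summed to 12.2 to 18.35 CPM in cKit dKO libraries, where Cd3d, Cd8a, Tbx21, Ncr1, Klrb1c and Gzmb were at 0 in both, against 50.5 to 53.8 CPM in Thy1 dKO. Their part in these results was not tested.

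The comparison of dKO with control asks how these genes differ between the libraries labelled PRC1dKO and PRC1ctrl, within each sort. In the cKit sort Etv5 rose 2.5-fold in dKO libraries (log2 change 1.32 ± 0.139, n = 2 each; edgeR adjusted p 1.29e-05), the 490th highest log2 change of 14907 genes. It was the only one of the 8 that passed the test, beside 28.6% of all genes called, 13.2% higher and 15.4% lower. Both dKO libraries were above both controls for Etv5 and Gfra1, beside 30.8% of all genes. The change of Etv5 passed in every alternative run, from 0.82 with limma on log2(RPKM + 1) to 2.83 with germ cell scaling, and from 1.23 to 1.49 when single libraries were left out.

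The other 7 genes did not pass the edgeR test between cKit dKO and cKit control libraries. Log2 changes were 0.59 ± 0.379 for Gfra1, 0.40 ± 0.256 for Ret, 0.21 ± 0.328 for Bcl6b and 0.68 ± 0.591 for Id4 (edgeR adjusted p 0.269, 0.264, 0.68 and 0.425). The 95% exact interval of the pooled CPM ratio, for counting error only, was 0.895 to 2.48 for Gfra1, 0.941 to 1.8 for Ret, 0.814 to 1.65 for Bcl6b and 0.823 to 2.86 for Id4. Lhx1 and Nanos2 rested on 6 and 6 counts in the dKO pair against 5 and 6 in the control pair, with intervals of 0.469 to 7.63 and 0.411 to 5.74. Eomes had a log2 change of -1.08 ± 0.935 (edgeR adjusted p 0.42), which was 2.17 without cKit control replicate 1. Its pooled ratio had a counting interval of 0.167 to 0.95, with 28 of the 29 control counts in that 1 library. The median log2 change was 0.56 over the 8 genes and 0.03 over all genes. Core germ cell markers fell in the same comparison, 19 of 22 lower by the edgeR test and none higher. When libraries were scaled on those germ cell genes, the median of all genes moved to 1.56. Of all 14907 genes, 11894 were then called higher in cKit dKO and 73 lower. Of the 8 members 6 were called higher, which is near the share of all genes. These were Gfra1 (2.16), Ret (1.95), Etv5 (2.83), Bcl6b (1.71), Lhx1 (2.55) and Id4 (2.28).

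In Thy1+ cells no member passed the edgeR test in dKO against control libraries, 0 of 8, beside 0.624% of all genes, 0.362% higher and 0.262% lower. DESeq2 and limma on RPKM also called 0 of 8. At an unadjusted p under 0.05 edgeR gave 2 of the 8, Gfra1 (log2 change 0.52 ± 0.213, edgeR adjusted p 0.276) and Etv5 (0.44 ± 0.135, edgeR adjusted p 0.146), and 2059 of all genes. With the spread estimated from the 4 Thy1 libraries alone Etv5 passed (log2 change 0.41, edgeR adjusted p 0.0356). In CPM both dKO libraries were above both controls for Gfra1, Ret, Etv5 and Lhx1, beside 28.5% of all genes, and below them for Eomes, beside 22.8%. Of the rest, the log2 change was 0.12 ± 0.163 for Ret, 0.04 ± 0.274 for Bcl6b, -0.22 ± 0.459 for Id4, -0.02 ± 0.738 for Nanos2 and -0.15 ± 0.739 for Eomes, and Lhx1 had 0.64 ± 0.802 (edgeR adjusted p 0.784 to 0.996 over these 6 genes).

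**Figure D2:**
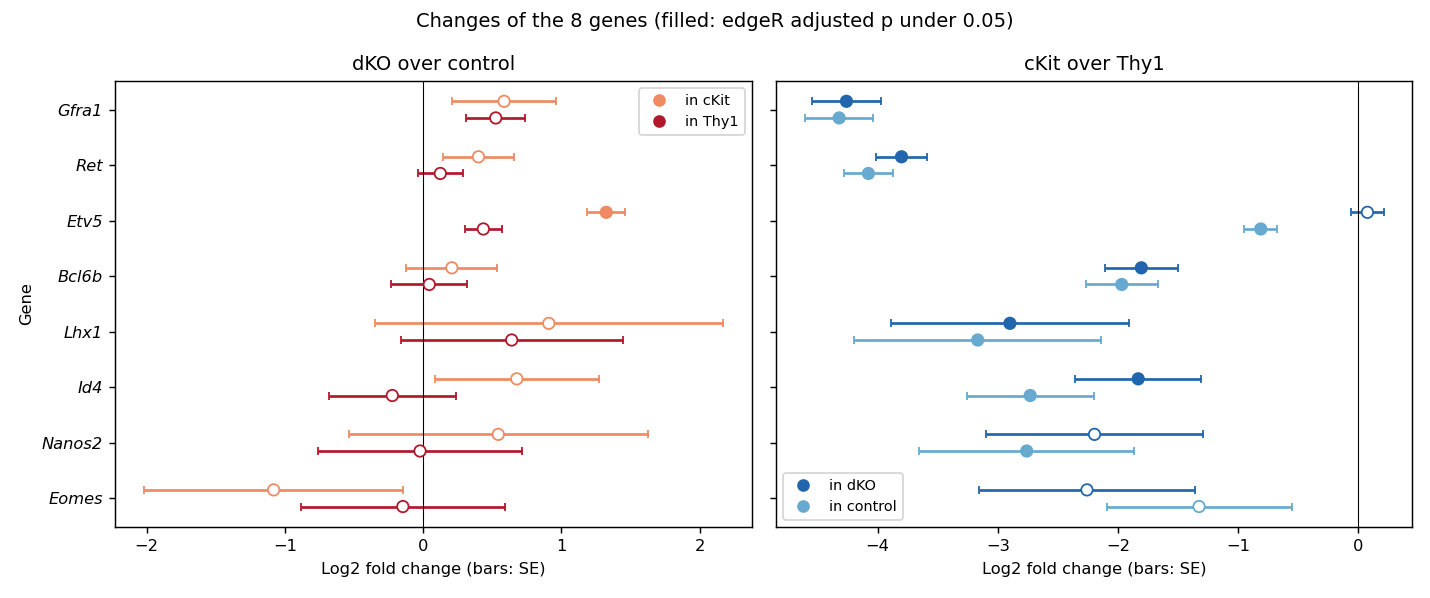
Log2 fold change (x axis) of each of the 8 genes (y axis) with its SE as a bar, for dKO over control within each sort at the left and for cKit over Thy1 within each genotype at the right; filled points passed the edgeR test at an adjusted p under 0.05. Etv5 was the one filled point for dKO over control, at 1.32 in cKit, and the one gene near 0 for cKit over Thy1 in dKO, at 0.08.

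The difference between the 2 dKO effects was tested as an interaction. Etv5 rose more in the cKit than in the Thy1 sort, with a log2 difference of 0.89 ± 0.192 (adjusted p 0.0137 in edgeR), the 1 of 8 members called, beside 5.92% of all genes called, 1.86% higher and 4.06% lower. The other 7 differences were -0.93 to 0.90 with edgeR adjusted p of 0.546 to 0.959. The Etv5 difference did not pass without Thy1 control replicate 2, Thy1 dKO replicate 1, Thy1 dKO replicate 2 or cKit control replicate 1 (edgeR adjusted p 0.0634, 0.0816, 0.07 and 0.0665, log2 differences 0.81 to 0.89). With limma on log2(RPKM + 0.1) and log2(RPKM + 1) it was 0.54 and 0.46 (adjusted p 0.14 and 0.157).

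Per transcript length, the levels of the 8 genes can be set beside each other within a group. Between libraries, RPKM did not follow the counts exactly: relative to each library's share of counts it was shifted by -0.125 to 0.191 on the log2 scale, by nearly the same amount across the 7135 genes with at least 100 counts in every library (5th to 95th percentile within 0.019), and by -0.21 in cKit dKO relative to cKit control. Order and shares within a library are not touched by such a shift. In the authors' RPKM values, the order in Thy1 control libraries was Etv5 (mean 5.56), Ret (3.14), Gfra1 (3.09), Id4 (1.34), Bcl6b (1.31), Nanos2 (0.439), Eomes (0.276) and Lhx1 (0.241). Ret and Gfra1 did not differ beyond their SDs of 0.183 and 0.37, nor Id4 and Bcl6b beyond 0.354 and 0.133. In Thy1 dKO libraries Gfra1 (4.41 ± 0.437) stood above Ret (3.46 ± 0.0573). In cKit dKO libraries Etv5 had 7.41 RPKM and the next gene, Bcl6b, 0.363, and in cKit control libraries they had 3.75 and 0.398. Etv5 thus made up 84% and 86.2% of the summed RPKM of the 8 genes in cKit dKO, 70.3% and 79.7% in cKit control, 38.7% and 40.3% in Thy1 dKO and 36.3% and 36% in Thy1 control libraries.

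**Figure D3:**
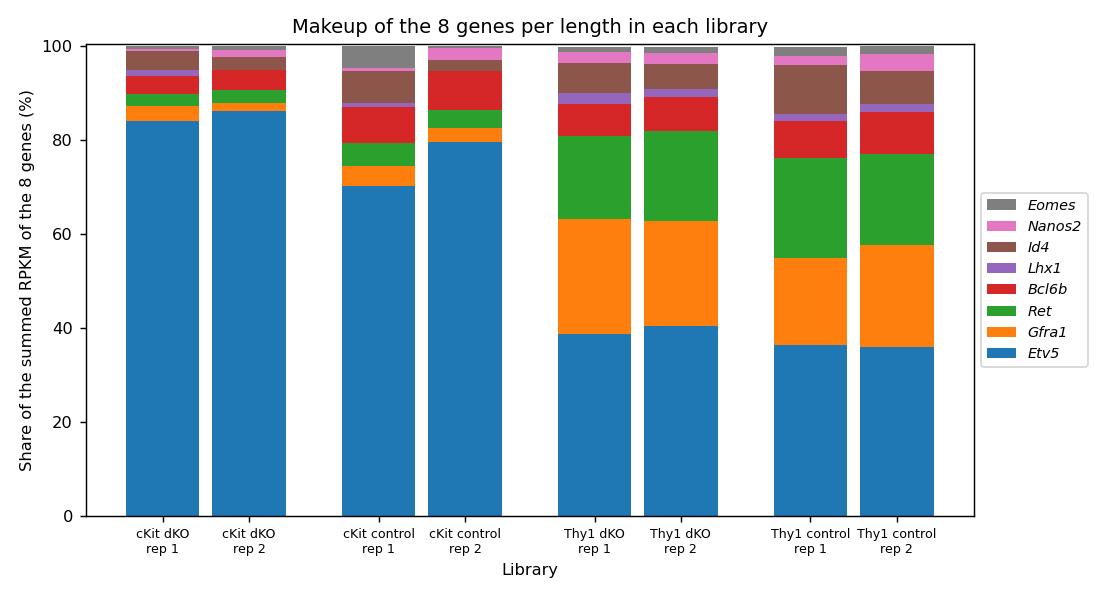
Share of each gene in the summed RPKM of the 8 genes (y axis, percent) in each of the 8 libraries (x axis), stacked from Etv5 at the bottom to Eomes at the top. Etv5 took 70.3% to 86.2% in the 4 cKit libraries and 36% to 40.3% in the 4 Thy1 libraries, where Gfra1 and Ret held most of the rest.

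The members varied together across libraries except for Etv5. Over the 8 libraries, which span both sorts and genotypes, Pearson's r of log2 CPM was 0.629 to 0.99 (median 0.882) for the 21 pairs without Etv5 and 0.172 to 0.463 (median 0.428) for the 7 pairs with it. Gfra1 and Ret had r = 0.989. The 4 groups fix most of this spread, so the r values describe these libraries only. Among the 10235 tested genes whose mean log2 CPM was 3 or more, the highest r with Gfra1 was that of Ace (0.997), Rgs5 (0.994) and Itgb3 (0.993), and with Ret that of Rgs5 (0.998), H3f3a (0.997) and Rap1b (0.994). Closest to Etv5 were Tmem50b (0.988), Cmtm3 (0.984) and Nfam1 (0.982), and among the 3 closest to Bcl6b were Ssbp2 (0.994) and Rgl1 (0.991). Id4 had Fam102b (0.982), Adamts14 (0.981) and Pacs2 (0.98).

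Around the receptor, the ligands and co-receptors of the GDNF family rose in cKit dKO against cKit control libraries in 4 of 8 tested genes, 1 fell, and 3 did not pass. Of all genes, 13.2% were higher and 15.4% lower. With limma on RPKM 1 or 2 of the 8 rose and with germ cell scaling 7, and 1 fell in each. That scaling called 11894 of all 14907 genes higher and 73 lower. Gdnf, the ligand itself, had 87.4 and 79.4 CPM in cKit dKO libraries, 38.4 and 43.5 in cKit control, 21.51 and 19.06 in Thy1 dKO and 13.2 and 17.3 in Thy1 control. It was higher in both cKit groups, where Gfra1 and Ret were low, than in the Thy1 groups, and its log2 change in cKit dKO was 1.03 ± 0.168 (edgeR adjusted p 0.00039). Gdnf is made by Sertoli and peritubular cells in the mouse testis, and summed CPM of 15 Sertoli cell markers was 1767 to 1833 in cKit dKO, 1292 to 1335 in cKit control, 713.8 to 742.5 in Thy1 dKO and 551.1 to 560.4 in Thy1 control libraries, with 6 of 14 tested markers higher and 1 lower in cKit dKO than in cKit control. Peritubular and stromal markers, unlike Gdnf, were lower in the cKit than in the Thy1 groups, with summed CPM of 3566 to 4379 in cKit dKO, 2149 to 2228 in cKit control, 8171 to 8536 in Thy1 dKO and 7475 to 10090 in Thy1 control libraries. The part of those cells in the Gdnf counts was not tested.

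Gfra2, the co-receptor for neurturin, had 41.9 and 20.9 CPM in cKit dKO against 11.6 and 9.70 in cKit control libraries (log2 change 1.55 ± 0.312; edgeR adjusted p 0.00186), and the heparan sulfate carrier Sdc3 and the adhesion molecule Ncam1, both able to bind GDNF, rose by 0.94 ± 0.188 and 0.93 ± 0.237 (edgeR adjusted p 0.00174 and 0.00852). The call of Ncam1 was lost without cKit control replicate 1 (0.83, edgeR adjusted p 0.0808) or cKit dKO replicate 1 (0.73, 0.0532). Gfra3, the co-receptor for artemin, was the gene that fell, with 1 and 2 counts in cKit dKO libraries against 57 and 37 in cKit control. Its mean level was below the limit for named genes and it was chosen after its value was seen. In Thy1 dKO libraries, where edgeR called 0.624% of all genes, 0 of the 8 were called by edgeR, DESeq2 or limma. An unadjusted edgeR p under 0.05 was reached by 2059 of all 14907 genes and by 4 of the 8. The 10 alternatives that change the method called 0 to 2 of them. Between the sorts, in controls, 5 of the 8 were lower in cKit and 1, Gdnf, higher, beside 10.3% and 9.46% of all genes. Gfra2 (log2 change -2.13 ± 0.306) and Sdc3 (-1.67 ± 0.184) fell with Gfra1 and Ret.

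The genes that ERK signalling induces, with the 3 PEA3 factors, moved mostly one way in cKit dKO libraries: 10 of 13 rose, none fell, and Il17rd, Dusp5 and Spred3 did not pass, with a list median of 0.87 against 0.03 for all genes. Of all genes, 13.2% were higher and 15.4% lower. With germ cell scaling 11894 of all 14907 genes were called higher and 73 lower. Etv5 is itself one of the 10 that rose. Its relatives Etv4 and Etv1 rose by 1.81 ± 0.627 and 1.19 ± 0.201 (edgeR adjusted p 0.0418 and 0.000496). Etv4 had 2.08 and 2.35 CPM in cKit dKO against 0.606 and 0.638 in cKit control libraries, and its call was lost when any 1 of the 8 libraries was left out (edgeR adjusted p 0.0543 to 0.16). The ERK feedback inhibitor Spry2 had 59.55 and 61.95 CPM in cKit dKO against 33.8 and 26.9 in cKit control libraries, and the 2 pairs did not overlap (log2 change 0.99 ± 0.157; edgeR adjusted p 0.000294). The number that rose was 8 with scaling on library totals, 13 with germ cell scaling, 6 with limma on RPKM and 7 to 9 without single libraries, and none fell in these.

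In Thy1 dKO libraries, where edgeR called 0.624% of all genes, 0 of the 13 ERK and PEA3 genes were called by edgeR, DESeq2 or limma. An unadjusted edgeR p under 0.05 was reached by 2059 of all 14907 genes and by 2 of the 13. Log2 changes were above 0 for 11 of the 13, with a median of 0.27 against 0.03 for all genes. The 10 alternatives that change the method called 0 to 1 of them. Between the sorts in controls, 6 of the 13 were lower in cKit and 1 higher, beside 10.3% and 9.46% of all genes. Etv4 (log2 change -2.88 ± 0.592), Il17rd (-1.50 ± 0.194) and Spry1 (-0.91 ± 0.169) fell, and the ERK phosphatase Dusp4 rose by 1.52 ± 0.221. With germ cell scaling that of Spry1 did not pass (-0.47, edgeR adjusted p 0.24). Spry1, with 41.5 and 40.6 CPM in cKit dKO, 21.8 and 19.3 in cKit control, 35.4 and 40.8 in Thy1 dKO and 39.05 and 38.4 in Thy1 control libraries, was the other gene of the list whose dKO effect differed between the sorts (1.02 ± 0.237; edgeR adjusted p 0.02). That call was lost without any single Thy1 library (edgeR adjusted p 0.059 to 0.14) and with limma on RPKM (0.102 and 0.113).

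**Figure D4:**
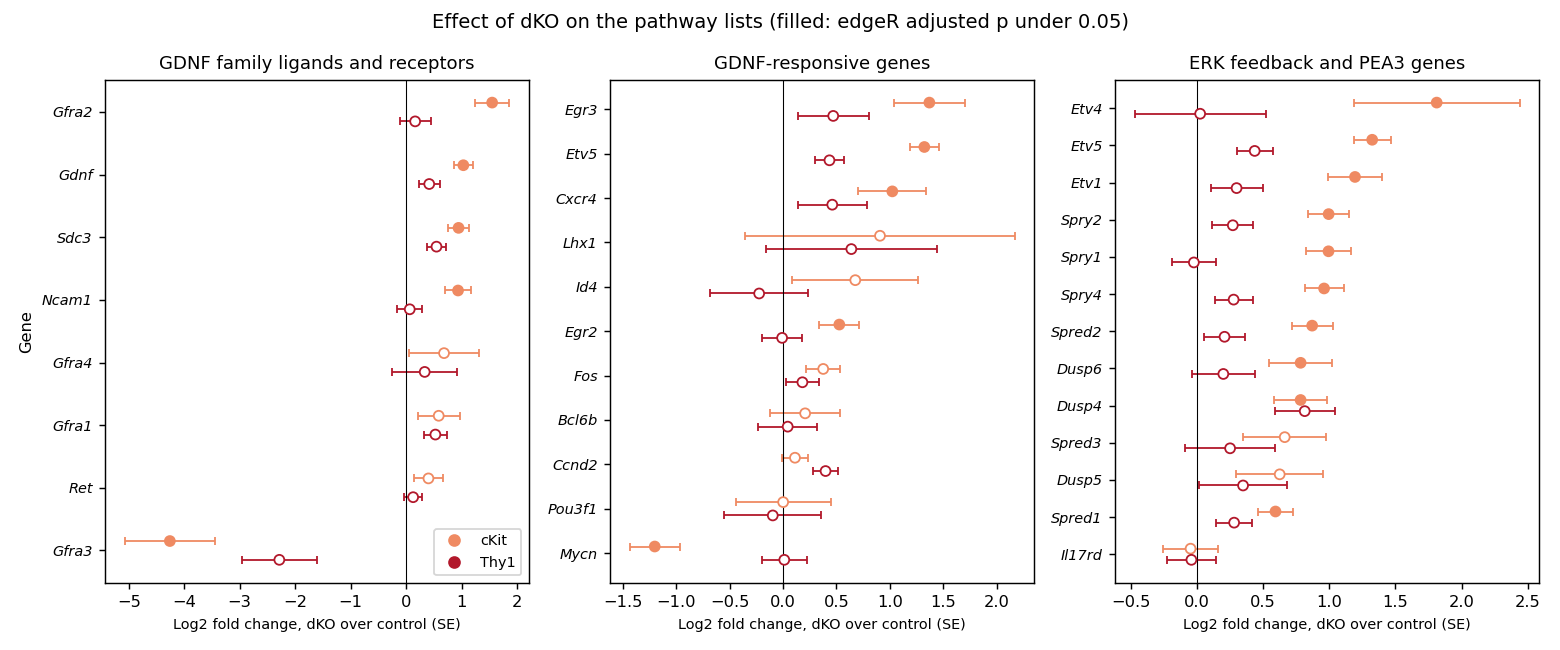
Log2 fold change of dKO over control (x axis) with its SE for the tested genes (y axis) of 3 lists, in cKit and in Thy1; filled points passed the edgeR test at an adjusted p under 0.05. In cKit 4, 4 and 10 genes of the lists from left to right were called higher and 1, 1 and 0 lower, and in Thy1 none was called.

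Of 11 tested genes that GDNF induces in cultured mouse stem cells, 4 rose and 1 fell in cKit dKO libraries. Of all genes, 13.2% were higher and 15.4% lower. With germ cell scaling 10 of the 11 rose and 0 fell, beside 11894 of all 14907 genes called higher and 73 lower. The 4 that rose were Etv5, the immediate early factor Egr3 (log2 change 1.37 ± 0.33; edgeR adjusted p 0.00614), the chemokine receptor Cxcr4 (1.02 ± 0.319; 0.0257) and Egr2. The N-MYC gene Mycn, which drives growth of progenitors, was the gene that fell, with 11.7 and 7.37 CPM in cKit dKO against 22.3 and 21.4 in cKit control libraries (log2 change -1.20 ± 0.235; edgeR adjusted p 0.00152), and was 0.36 with germ cell scaling (0.33). Without cKit control replicate 1 the call of Egr3 was lost (edgeR adjusted p 0.0584), and that of Cxcr4 was lost without it, cKit control replicate 2 or cKit dKO replicate 2 (0.133, 0.063 and 0.379), leaving 1 higher and 1 lower in the list in the first case. In Thy1 dKO libraries, where edgeR called 0.624% of all genes, 0 of 11 were called by edgeR and by limma and 1 by DESeq2. An unadjusted edgeR p under 0.05 was reached by 2059 of all 14907 genes and by 2 of the 11. Over the 10 alternatives that change the method, 0 to 2 were called. In cKit control against Thy1 control libraries 5 of 11 were lower and none higher, beside 10.3% and 9.46% of all genes. Among the 5 was Ccnd2, a D-type cyclin (log2 change -0.95 ± 0.121), which did not pass with germ cell scaling (-0.49, edgeR adjusted p 0.184).

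Among 28 tested genes of the kinases and adaptors that relay RET signals, 7 rose and 3 fell in cKit dKO libraries. Beside them, 13.2% of all genes were higher and 15.4% lower. The adaptor Gab2 (log2 change 0.80 ± 0.119) and the ERK kinase Mapk3 (0.68 ± 0.118) rose, and the PI3K subunit Pik3cb (-1.18 ± 0.158) fell (edgeR adjusted p 0.000182, 0.000609 and 8.28e-05). With limma on RPKM 1 rose and 4 fell, and with germ cell scaling 26 rose and none fell. Germ cell scaling called 11894 of all 14907 genes higher and 73 lower. The split of directions in this list thus moved with the scaling, as did that of all genes. In Thy1 dKO libraries, where edgeR called 0.624% of all genes, 0 of 28 were called by edgeR and by limma and 1 by DESeq2. An unadjusted edgeR p under 0.05 was reached by 2059 of all 14907 genes and by 2 of the 28.

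In Thy1+ cells, where no member passed, other stem cell and progenitor regulators were called. Of 20 tested genes, the members among them, 4 fell and none rose in Thy1 dKO libraries, and 6 fell and 1 rose in cKit dKO libraries. Of all genes, 0.262% were lower and 0.362% higher in Thy1 dKO, and 15.4% and 13.2% in cKit dKO. With germ cell scaling 1 fell and 8 rose in cKit dKO, so the direction of this list turned with the scaling, and 3 fell in Thy1 dKO. The same scaling called 11894 of all 14907 genes higher and 73 lower in cKit dKO, and 76 higher and 10 lower in Thy1 dKO. Over the 10 alternatives that change the method, 2 to 8 genes of the list were called in Thy1 dKO. Sall4, a zinc finger factor of undifferentiated spermatogonia, had 14.25 and 18.2 CPM in cKit dKO, 132.2 and 117.6 in cKit control, 62.2 and 60.3 in Thy1 dKO and 173.7 and 190.8 in Thy1 control libraries. Its log2 changes were -2.94 ± 0.154 in cKit dKO and -1.57 ± 0.134 in Thy1 dKO (edgeR adjusted p 8.41e-08 and 7.32e-05). Lin28a, an RNA-binding protein of progenitors, fell by 1.23 ± 0.154 in Thy1 dKO on the log2 scale (edgeR adjusted p 0.00271, 0.0506 and 0.112 without either Thy1 dKO replicate, and 0.059 with germ cell scaling). The number that fell in Thy1 dKO was 1 to 6 when single libraries were left out, with 1 without either Thy1 dKO replicate and 2 without either Thy1 control replicate.

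Close relatives of the members can be set beside them. Of 23 tested genes of the families of Gfra1, Etv5, Lhx1, Id4, Nanos2 and the other members, 6 rose and 3 fell in cKit dKO libraries. Of all genes, 13.2% were higher and 15.4% lower there. With germ cell scaling 16 of the 23 rose and 1 fell, beside 11894 of all 14907 genes called higher and 73 lower. In Thy1 dKO libraries, where edgeR called 0.624% of all genes, 0 of the 23 were called by edgeR and by limma and 1 by DESeq2. An unadjusted edgeR p under 0.05 was reached by 2059 of all 14907 genes and by 4 of the 23. The 10 alternatives that change the method called 0 to 3 of them. Lhx9, a LIM homeobox gene of somatic gonad cells, had 51.9 and 51.3 CPM in cKit dKO against 17.15 and 18.25 in cKit control libraries (log2 change 1.55 ± 0.161), and Lhx8, a LIM homeobox gene of germ cells, 2.56 and 2.20 against 10.4 and 13.65 (-2.33 ± 0.471; edgeR adjusted p 1.2e-05 and 0.00192). Id3 had 68.2 and 85.8 CPM in cKit dKO against 31.8 and 34.45 in cKit control libraries, and Nanos1 31.4 and 24.9 against 68.8 and 61.9. The dKO effect of Id3 was higher in cKit than in Thy1 by 1.07 ± 0.231 and that of Nanos1 lower by a log2 difference of -1.12 ± 0.228 (edgeR adjusted p 0.0136 and 0.00996). The call of Id3 was lost without Thy1 control replicate 2, Thy1 dKO replicate 2 or cKit control replicate 1 (edgeR adjusted p 0.0653 to 0.0876), and that of Nanos1 without Thy1 control replicate 1, Thy1 dKO replicate 1 or cKit control replicate 1 (0.0503 to 0.0738). The same differences for Id4 and Nanos2 did not pass (0.90 ± 0.748 and 0.57 ± 1.29; edgeR adjusted p 0.546 and 0.861).

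Niche factors, the ligands that surround the stem cell, rose in 9 of 11 tested genes in cKit dKO libraries and fell in none. Of all genes, 13.2% were higher and 15.4% lower. With germ cell scaling 11894 of all 14907 genes were called higher and 73 lower. Nrg1 (log2 change 2.54 ± 0.344), Fgf2 (1.79 ± 0.39), Igf1 (1.47 ± 0.149) and Cxcl12 (1.11 ± 0.133) had the largest changes (edgeR adjusted p 9.18e-05, 0.00326, 9.63e-06 and 3.56e-05). In Thy1 dKO libraries, where edgeR called 0.624% of all genes, 0 of the 11 were called by edgeR, DESeq2 or limma. An unadjusted edgeR p under 0.05 was reached by 2059 of all 14907 genes and by 3 of the 11. Over the 10 alternatives that change the method, 0 to 2 were called. The number that rose in cKit dKO was 7 with scaling on library totals, 11 with germ cell scaling, 5 with limma on RPKM and 6 without cKit control replicate 1. In the same comparison 7 of 11 peritubular and stromal markers and 5 of 10 endothelial markers were higher by the edgeR test and none lower, with summed CPM of 3566 to 4379 against 2149 to 2228 and 432.4 to 454.5 against 216.9 to 221.8. Their part in the rise of these ligands, and in that of Etv5 and the ERK genes, was not tested.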

How the data were processed

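Per the labels' protocols, amplified cDNA (NuGEN Ovation) went into Nextera XT library preparation, and sequencing was on Illumina HiSeq. No molecular identifiers are described, so counts include amplification copies and intervals cover counting error only. The submitters' processing notes name STAR 2.4.2a and the mm10 build. How reads were counted, and whether strand was used, is not given in the sources used here. Each library's table lists 26099 transcript entries with a column of read counts, which the authors deposited as whole numbers without normalization, and a column of RPKM values, which the authors deposited named RPKM per the file headers. The total behind it is not given in the sources used here and was not the total of the counts, so limma values on RPKM carry a shift between libraries of -0.125 to 0.191 on the log2 scale.

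Counts were summed per symbol and tested with edgeR 4.0.16 in R 4.3.3. Genes were kept by filterByExpr (minimum count 10, minimum total 15), libraries were scaled by TMM, and 1 quasi-likelihood fit with a mean for each of the 4 groups covered all 8 libraries, with 4 residual degrees of freedom. P-values were two-sided and adjusted by Benjamini-Hochberg over all 14907 tested genes, with a threshold of 0.05. CPM are counts scaled to the TMM-adjusted library size. The fit was tested on simulated data. Alternatives were DESeq2 1.42.0, library totals, scaling on the 22 core germ cell genes, no filter on low counts, only the 4 libraries of a comparison, a replicate block, limma 3.58.1 on log2(RPKM + 0.1) and log2(RPKM + 1), the entry with the highest count per symbol, leaving out Rn45s (8.418% to 13.56% of counts), and leaving out each library.

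The members and gene lists were chosen with earlier results of these data known. Named genes are the members, the genes that check labels and sort, up to 4 called genes per pathway list and comparison in order of absolute log2 change with mean log2 CPM of 1 or more, and, for each member at that level, the 3 genes of highest correlation among those with mean log2 CPM of 3 or more. Sequences are from RefSeq and overlaps from GENCODE. Of 30 relay genes 29 had a symbol in the table. Some genes that this rule names are not reported here. Other comparisons of the series were not analysed here.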

Additional observations from a re-analysis of the deposited data

Results flagged for a closer look

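Etv5 was the one member whose dKO effect differed between the sorts by a test of the difference itself: the log2 change was higher in cKit than in Thy1 by 0.89, with log2 changes of 1.32 in cKit dKO and 0.44 in Thy1 dKO (edgeR adjusted p 0.0137 for the difference). Both cKit dKO libraries were above both cKit control libraries, beside 30.8% of all genes. Both Thy1 dKO libraries were above both Thy1 control libraries, beside 28.5% of all genes. The test of the difference called 5.92% of all genes. The Etv5 call was lost with both limma fits (0.54 and 0.46, limma adjusted p 0.14 and 0.157). It was also lost without the single libraries named beside it in the results (log2 differences 0.81 to 0.89).

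Among the other genes named from the pathway lists, the same test of the difference gave log2 values above 0 for Ddit4 (2.72), Igf1 (1.12), Id3 (1.07), Spry1 (1.02), Cxcl12 (0.98), Lhx9 (0.95) and Mapk3 (0.71), with edgeR adjusted p of 0.000834, 0.00566, 0.0136, 0.02, 0.00576, 0.0189 and 0.02. It gave log2 values below 0 for Lhx8 (-2.83), Sohlh1 (-1.52), Sall4 (-1.37), Mycn (-1.21), Nanos1 (-1.12) and Pik3cb (-1.06), with edgeR adjusted p of 0.0161, 0.0267, 0.00167, 0.0343, 0.00996 and 0.0107. Of these 13 genes, Ddit4 passed in every alternative run.

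Most of the other calls were lost in some of the runs that left out a single library, though their log2 values kept their sign in those runs. Among those above 0, Lhx9 did not pass without any single Thy1 library or cKit control replicate 1 (edgeR adjusted p 0.0662 to 0.127), Mapk3 without any single Thy1 library (0.0604 to 0.124) or with library totals (0.0592), and Cxcl12 without Thy1 dKO replicate 1 (0.0598). Spry1 and Id3 were lost without the libraries named beside them in the results. With both limma fits Igf1 (limma adjusted p 0.0734 and 0.0872), Id3, Spry1, Lhx9 and Mapk3 did not pass. Among those below 0, Mycn did not pass without any single library but cKit dKO replicate 1 (edgeR adjusted p 0.0679 to 0.176), nor with the highest-count entry (0.0515). Sohlh1 did not pass without any single Thy1 library, cKit control replicate 2 or cKit dKO replicate 1 (edgeR adjusted p 0.0786 to 0.121). Pik3cb did not without Thy1 control replicate 2 or either Thy1 dKO replicate (0.0553 to 0.0632), Lhx8 without Thy1 control replicate 2 or Thy1 dKO replicate 1 (0.0616 and 0.125), and Nanos1 without 3 libraries (0.0503 to 0.0738). With germ cell scaling none of these 6 passed: Sall4 was -0.10, Sohlh1 -0.29 and Lhx8 -1.49 (edgeR adjusted p 0.833, 0.65 and 0.054), and Mycn, Nanos1 and Pik3cb were above 0.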

How the results depend on the processing

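The rise of Etv5 in cKit dKO libraries passed in all 18 alternatives, from 0.82 to 2.83 on the log2 scale, and the fall of Gfra1 and Ret in cKit against Thy1 libraries passed in all of them in both genotypes. Over 159 results and 2829 alternative values, 2457 kept their direction and their side of the threshold (counts, within 1.5 times), 145 lost a call, 19 gained one, 52 changed sign and 156 counts moved by over 1.5 times. Low counts limit Lhx1, Nanos2 and Eomes most, with 0 to 28 counts in each cKit library. A fit to the 4 libraries of the comparison gives no value for the difference of the dKO effects. Where a value below moved or changed sign, the cause was not tested.

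The number of all genes called in Thy1 dKO, 93, was 330 with DESeq2, 563 with no filter on low counts, 870 with only the 4 libraries, 157 with the replicate block, 6 and 24 with limma on log2(RPKM + 0.1) and log2(RPKM + 1), 41 with the highest-count entry, and 3 to 400 when single libraries were left out. In cKit dKO, 4259 became 11967 with germ cell scaling and 2386 to 3972 without single libraries, and in cKit control against Thy1 control 2939 became 1717 to 3575. In cKit dKO against Thy1 dKO, 5190 became 11975 with germ cell scaling and 3101 to 5245 without single libraries. For the difference of the dKO effects, 883 became 8557 with germ cell scaling, 1490 with no filter and 219 to 1268 without single libraries. The number of members called changed with germ cell scaling to 6 in cKit dKO, 3 in cKit dKO against Thy1 dKO and 5 for the difference. It was 0 for the difference with both limma fits, 1 in Thy1 dKO with only the 4 libraries, 3 to 6 in cKit dKO against Thy1 dKO and 0 to 1 for the difference without single libraries.

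Deviations of same-numbered libraries correlated at -0.0453 to 0.0522 over 6 pairs of groups. Such values cannot tell whether same-numbered libraries shared an animal or a preparation, and the labels do not say. With the replicate block the members called stayed at 0 in Thy1 dKO and 1 in cKit dKO, 157 and 4217 of all genes were called, and Nanos2 in Thy1 dKO was 0.11. Germ cell scaling moved the median log2 change of all genes to 1.56 in cKit dKO, 1.66 in cKit dKO against Thy1 dKO, 0.46 in cKit control against Thy1 control, 0.27 in Thy1 dKO and 1.26 for the difference. The share of higher genes among those called in cKit dKO was 46.1%, against 29.8% with library totals, 99.4% with germ cell scaling and 9.88% and 10.3% with the 2 limma fits. For cKit dKO against Thy1 dKO it was 42.4%, against 30.5% with library totals and 98.6% with germ cell scaling. In Thy1 dKO it was 58.1%, against 88.4% with germ cell scaling and 33.3% and 41.7% with limma. In cKit control against Thy1 control it was 48%, against 80.2% and 72.7% and 73%, and for the difference 31.5%, against 99.6% and 3.51% and 3.34%, and 43.5% with DESeq2 and 15.1% with library totals.

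With germ cell scaling these log2 changes turned above 0: Eomes in cKit dKO (0.51), in Thy1 dKO (0.090) and for the difference (0.42), Nanos2 in Thy1 dKO (0.25), Mycn and Pik3cb in cKit dKO (0.36 and 0.35), Mycn, Nanos1 and Pik3cb for the difference (0.12, 0.19 and 0.23), and, in cKit dKO against Thy1 dKO, Ccnd2 (0.53), Cxcl12 (0.50), Il17rd (0.21), Lyn (0.82), Mycn (0.11), Pik3r1 (0.81) and Sdc3 (0.45). With limma on log2(RPKM + 0.1) and log2(RPKM + 1), values turned to -0.12 and -0.038 for Bcl6b in cKit dKO, to -0.012 and -0.0095 for Etv5 in cKit dKO against Thy1 dKO, and to 0.038 and 0.0028 for Nanos2 in Thy1 dKO. For the difference they turned to -0.15 and -0.057 for Bcl6b, -0.33 and -0.36 for Gfra1, -0.32 and -0.12 for Lhx1, -0.099 and -0.10 for Ret, and with the first of them to -0.0036 for Nanos2. Library totals gave -0.054 for Etv5 in cKit dKO against Thy1 dKO and -0.084 for the difference of Gfra1.

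Leaving out single libraries turned the sign of uncalled values of members, over these ranges: Bcl6b in Thy1 dKO -0.12 to 0.23 and for the difference -0.021 to 0.44, Eomes in cKit dKO -1.87 to 2.17 and for the difference -1.68 to 2.32, Gfra1 for the difference -0.21 to 0.42, Lhx1 in cKit dKO -4.13 to 4.90 and for the difference -4.73 to 4.26, and Nanos2 in Thy1 dKO -0.45 to 0.61, in cKit dKO -0.90 to 1.42 and for the difference -0.84 to 1.48.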
